A study of Mus musculus with 44 samples.

Results

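Cells that descend from the extraembryonic endoderm were compared at embryonic day 9.5 (E9.5) between the places they had reached, the midgut of the embryo (exMidgut, n = 4 libraries) and the endoderm of the yolk sac (YsEndo, n = 4 libraries). The members are the 8 libraries that carry these group names in the labels, of 44 low-input RNA libraries in the series. All 8 came from wild-type (WT) chimeras in which an mCherry+ host morula (CD1/G4) had been aggregated with GFP+ embryonic stem cells (G4), so that mCherry marks the extraembryonic lineage and GFP the embryo proper. Each library was made from a small pool of sorted cells of 4 embryos. The stem cell line is male, whereas the mCherry+ host cells of a pool may be of either sex. For reference the text gives the embryonic midgut cells (emMidgut, n = 4), GFP+ cells of the same dissected region that were sorted with low mCherry fluorescence, and the distal (exEndo 1, n = 4) and proximal (exEndo 2, n = 4) extraembryonic endoderm of single E6.5 embryos of the same kind. The methods of the study describe such dual-labelled cells as embryonic cells that took up remnants of mCherry+ cells, so that emMidgut may hold some extraembryonic transcripts, which limits it as a reference.

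The groups were not handled alike. Both tissues were dissociated with trypsin and stained for EPCAM, but the gut cells were also enriched on magnetic beads for EPCAM before flow sorting, and the yolk sac cells went straight to the sorter. Both groups were then gated on EPCAM and on mCherry, by the labels of exMidgut and the study's methods for YsEndo. The levels of Epcam and of mCherry therefore are no finding here. Tissue and handling cannot be told apart for any gene.

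The visceral endoderm is a polarised epithelium that surrounds the early embryo. Over the yolk sac it takes up maternal proteins through apical endocytic receptors, digests them in large lysosomes, and secretes serum proteins and lipoproteins into the embryo before the liver does so. Some visceral endoderm cells instead become part of the epithelium of the gut tube, which is patterned along its length by Cdx, Hox and Sox factors and which signals to the surrounding mesenchyme through hedgehog ligands. The comparison therefore asks how far the RNA of cells of 1 lineage differs between an absorptive and secretory extraembryonic epithelium and the primitive gut.

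Levels are TPM, the share of a gene in the transcripts of a library after correction for length, and differences are exMidgut minus YsEndo of log2(TPM + 1), given with the standard error after the ± sign, whereas means of TPM are given with the SD over 4 libraries. Genes were tested where at least 4 of the 8 libraries lay above 1 TPM. A gene was called when its limma adjusted p was under 0.05 and its log2 difference above 1 in size. Between 13222 and 13353 genes lay above 1 TPM in the exMidgut libraries and between 11292 and 11437 in the YsEndo libraries, without overlap (exact two-sided permutation test, p = 0.0286, the smallest that 4 against 4 libraries allow). The 10 most abundant genes took 6.02 to 6.37% of the TPM in exMidgut and 11.9 to 12.5% in YsEndo. TPM have the same sum in every library, so that the share taken by very abundant transcripts is not available to the others. The median log2 difference of all tested genes was 0.51. What part of it comes from such shares was not tested, and with the genes of secreted proteins left out it was 0.40. Every comparison was therefore repeated after a median-ratio rescaling of the libraries, which moved this median to 0.03, and a named call that was lost on that scale is given as such. The gene lists hold both tested and untested members. A low gene that was present in only 1 tissue passed the filter through that tissue, so that counts over a list describe its tested members and no others.

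The reporter RNAs of exMidgut and YsEndo followed their labels. mCherry was 7831, 5868, 7210.4 and 8273 TPM in exMidgut and 2186, 3473, 3500.2 and 4289 TPM in YsEndo, against 1.32 ± 2.64 TPM in emMidgut. EGFP was 2.299, 0, 0 and 0.0374 TPM in exMidgut and 0.1701, 0, 0 and 0.467 TPM in YsEndo, against 787 ± 83.96 TPM in emMidgut. Both groups thus carried the extraembryonic reporter and next to none of the embryonic one, with exMidgut replicate 1 the highest for EGFP, whereas emMidgut, though gated for low mCherry fluorescence, held little mCherry RNA. Xist, transcribed from the inactive X chromosome, was 113, 22.3, 46.8 and 35.3 TPM in exMidgut and 37.4, 15.6, 41.9 and 14.4 TPM in YsEndo, and the ranges of the groups overlapped. The 5 sex-linked genes of the list, Xist among them, summed to 127 to 170.1 TPM in exMidgut and 58.9 to 113 TPM in YsEndo, without overlap.

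The marker lists of both tissues were then read against the labels. All 9 yolk sac endoderm markers tested were lower in exMidgut than in YsEndo, and their summed level was 6690.1 to 14745 TPM in exMidgut and 49581 to 54759.5 TPM in YsEndo. Of 8 gut endoderm markers tested, 6 were higher in exMidgut and 0 lower, and 5 were higher with rescaling, where Foxa2 was not called. Epcam, used in the enrichment, is 1 of these, and Shh and Sox9 passed the filter through exMidgut. The list summed to 2714 to 2963 TPM in exMidgut and 1288 to 1675 TPM in YsEndo, so that YsEndo also held RNA of these genes. Of the other cell types, blood markers summed to 0.285 to 9.65 TPM in exMidgut and 6.24 to 8.78 in YsEndo, with none of 11 above the filter. Endothelium markers summed to 26.6 to 65.2 and 29.3 to 46.8, and mesenchyme markers to 6.29 to 21.03 and 10.2 to 17.5. Neural markers summed to 4.74 to 9.54 TPM in exMidgut and 0.211 to 1.58 in YsEndo, and surface ectoderm markers to 10.3 to 19.9 and 0 to 0.378. Of 9 neural markers only Map2 was tested, and of 7 surface ectoderm markers Krt15, Trp63 and Grhl3 were, and these 4 genes were called higher in exMidgut. All 4 lay at or under 1 TPM in every YsEndo library and passed the filter through exMidgut. Their direction therefore carries no weight of its own. The cells had been sorted on mCherry, and EGFP, which marks embryonic cells, was near 0 in exMidgut. The part of other cell types in the differences was not tested. Of 7 trophoblast markers 2 were tested, with 1 lower. Of 7 parietal endoderm markers 6 were tested, with 2 higher and 0 lower, or 1 and 2 with rescaling. Beside the counts of these marker lists, 33.5% of all tested genes were higher and 10.7% lower, or 22.8% and 18.4% with rescaling. The filter was passed through YsEndo by 1 of the trophoblast markers. Of 7 germ cell markers 1 was tested and was higher, and the list summed to 56.5 to 104 TPM in exMidgut and 8.47 to 12.2 TPM in YsEndo, without overlap.

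Of 11850 protein-coding genes tested, 5247 were called (44.3%). Of these, 3975 were higher in exMidgut (33.5% of the tested genes) and 1272 were lower (10.7%). In 4918 of the called genes the 4 libraries of one group all lay above the 4 of the other. After median-ratio rescaling 4883 genes were called (41.2%), 2697 higher (22.8%) and 2186 lower (18.4%), so that the share of calls that were higher went from 75.8% to 55.2%. Counts of called list members in the text are to be read beside these shares of the tested genes. All 2697 and all 1272 were called in the same direction on both scales, and no gene was called in opposite directions. Rescaling divides each library by 1 factor, so that this agreement follows largely from the method. The genes called lower held 30.0 to 31.1% of all TPM in the YsEndo libraries and 5.85 to 7.66% in exMidgut. The genes called higher held 24.4 to 26.0% of all TPM in exMidgut and 7.29 to 7.45% in YsEndo.

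**Figure D1:**
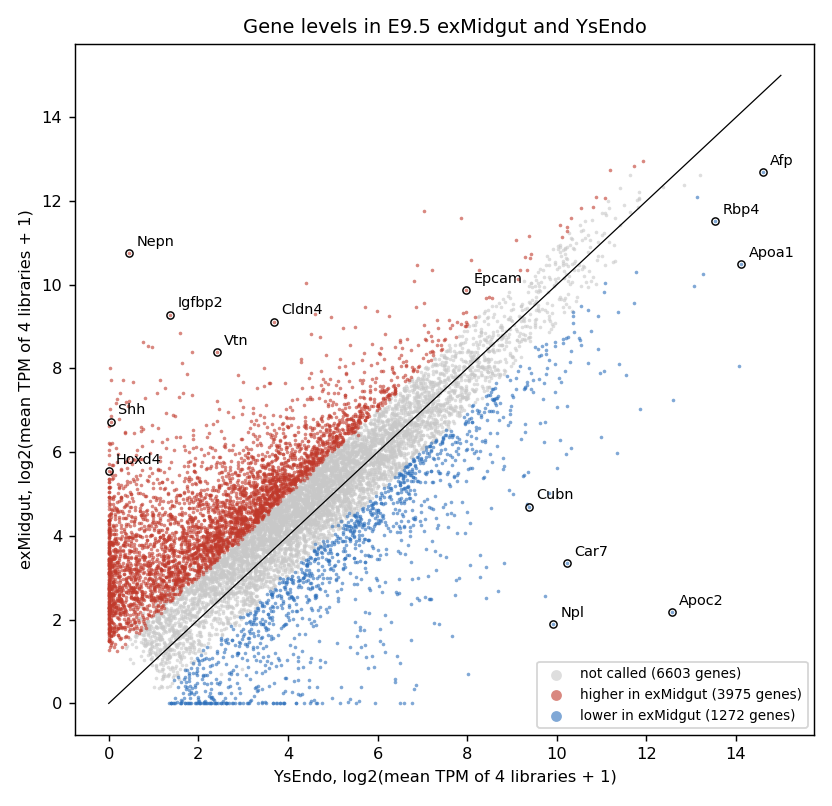
Each point is 1 of the 11850 tested genes, placed by log2 of its mean TPM plus 1 in the 4 YsEndo libraries (horizontal axis) and in the 4 exMidgut libraries (vertical axis). Red points were called higher and blue points lower in exMidgut, the line marks equal levels, and the farthest points from it include Nepn above and Apoc2 below.

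The 10 largest rises included secreted, matrix and growth-related genes. Nepn, which encodes the small leucine-rich proteoglycan nephrocan, was 1456, 1037, 2037 and 2361 TPM in exMidgut and 1.51, 0, 0 and 0 TPM in YsEndo. The difference was 10.35 ± 0.33 SE, limma adjusted p = 8.9e-10, and 3 YsEndo libraries listed it at 0. Igfbp2, a binding protein of insulin-like growth factors, was 428, 701, 721 and 641 TPM in exMidgut and 3.92, 1.097, 0.749 and 0.566 TPM in YsEndo, a difference of 8.05 ± 0.33 SE, limma adjusted p = 5.37e-09. Both genes were abundant in every exMidgut library and near absent from every YsEndo library, and neither was called between exMidgut and emMidgut. Sycn, a protein of pancreatic zymogen granules, was 349, 200.3, 567 and 372 TPM in exMidgut and 2.49, 0, 0.833 and 0 TPM in YsEndo. This gene lay above emMidgut as well, at 64.3 ± 35.2 TPM there (difference from emMidgut 2.57, limma adjusted p = 0.000405). The matrix proteoglycan Vcan (209.6 ± 38.8 TPM in exMidgut and 0.0321 ± 0.03 TPM in YsEndo), the chromatin protein Hmga2 (209.9 ± 42.8 and 0.238 ± 0.439), the secreted protein Fstl1 (457 ± 105 and 2.01 ± 0.5405) and Capn6 (256 ± 61.3 and 0.0192 ± 0.0384) were also among the 10 largest rises, with Nrep, Ifitm1 and Rasl11a, and their differences ran from 7.09 for Rasl11a to 7.94 for Capn6. Vcan, Hmga2, Capn6 and Rasl11a lay at or under 1 TPM in every YsEndo library. They passed the filter through exMidgut, so that their direction carries no weight of its own.

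The 10 largest falls included genes of lipid transport, of ion and water movement and of metabolism. Apoc2, the cofactor of lipoprotein lipase carried on lipoproteins, was 1.97, 8.33, 2.95 and 0.908 TPM in exMidgut and 7266, 5961, 5390.2 and 5683 TPM in YsEndo. Its log2 difference of -10.63 ± 0.37 SE, limma adjusted p = 1.47e-09 was the largest of these falls, and the groups were far apart. Npl, an enzyme of sialic acid breakdown, was 0, 5.08, 3.29 and 2.45 TPM in exMidgut and 958, 1019, 941 and 960.0 TPM in YsEndo, a difference of -8.3 ± 0.42 SE, limma adjusted p = 2.58e-08. Car7, a carbonic anhydrase, was 18.6, 14.2, 0.181 and 4.003 TPM in exMidgut and 896, 1192, 1262 and 1435 TPM in YsEndo, and exMidgut replicate 3 held the least of it. Fxyd2, a regulatory subunit of the sodium pump, was 4.29, 4.77, 4.23 and 6.46 TPM in exMidgut and 758, 828, 908 and 920.1 TPM in YsEndo, with 4 exMidgut libraries close to each other and all far below YsEndo (-7.18 ± 0.15 SE, limma adjusted p = 1.07e-10). The water channel Aqp8, the lipid hydrolase Aadac and Erich4 were listed at 0 in all 4 exMidgut libraries. In YsEndo they were 108 ± 40.96, 96 ± 21.8 and 89.04 ± 9.65 TPM. Aqp8, Aadac and Erich4 passed the filter through YsEndo, so that their direction carries no weight of its own. Smlr1, Mbl2 and Nup62cl completed the 10 largest falls, with differences from -7.58 to -6.47.

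Serum proteins did not move as 1 group. Of 33 listed, 26 were tested, of which 12 were higher in exMidgut and 11 lower, with a median difference of -0.01 against 0.51 for all genes. The 12 include the near-identical Serpina1 copies a to e, among which the split of reads is uncertain. Over all tested genes 33.5% were higher and 10.7% lower. The summed level of the list was 8056 to 17379 TPM in exMidgut and 46271 to 50656 TPM in YsEndo, and the abundant Afp, Rbp4 and Ttr were among the falls. Afp, the fetal albumin relative alpha-fetoprotein, was 4641, 7408, 8162 and 6142 TPM in exMidgut and 24518, 23926, 27039.6 and 23871 TPM in YsEndo. The groups did not overlap (-1.94 ± 0.14 SE, limma adjusted p = 3.87e-07), although under quantile normalisation the difference was too small for a call (-0.60). The exMidgut libraries held more Afp than emMidgut, at 831 ± 157 TPM (difference 2.97, limma adjusted p = 3.3e-08). Ttr, the thyroid hormone carrier transthyretin, was 614, 1370.0, 1093 and 944 TPM in exMidgut and 8315, 8439.6, 8228 and 9038 TPM in YsEndo, a difference of -3.14 ± 0.19 SE, limma adjusted p = 7.61e-08. Rbp4, the plasma carrier of retinol, was 1285, 3012, 4991 and 2425 TPM in exMidgut and 10743, 12829.9, 11944 and 12165 TPM in YsEndo (-2.18 ± 0.3 SE, limma adjusted p = 5.3e-05), with exMidgut replicate 1 lowest and replicate 3 highest. Transferrin (Trf), the iron carrier, differed by -3.15 ± 0.19 SE, limma adjusted p = 7.51e-08, from 246 ± 73.05 TPM in exMidgut to 2129 ± 267 TPM in YsEndo. The log2 difference was -3.85 for kininogen (Kng1) and -3.16 for the vitamin D carrier Gc.

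Other liver-type secreted proteins were higher in exMidgut, at lower levels. Vtn, the adhesion protein vitronectin, was 261, 264, 413 and 394 TPM in exMidgut and 4.78, 6.59, 3.27 and 2.58 TPM in YsEndo. Its difference was 6.0 ± 0.25 SE, limma adjusted p = 6.7e-09, and emMidgut held 294 ± 23.7 TPM. Hpx, the haem carrier hemopexin, was 84.7, 143, 327 and 126 TPM in exMidgut and 4.68, 1.95, 0.386 and 1.55 TPM in YsEndo (5.76 ± 0.45 SE, limma adjusted p = 5.6e-07), which put all exMidgut libraries above all YsEndo libraries and above the emMidgut mean of 30.7 ± 8.55 TPM (difference from emMidgut 2.29, limma adjusted p = 0.00102). Serpina1a, a protease inhibitor of the alpha-1-antitrypsin family, was 178, 220.1, 331 and 321 TPM in exMidgut and 48.9, 17.1, 33.8 and 36.9 TPM in YsEndo (2.95 ± 0.29 SE, limma adjusted p = 3.83e-06). The 5 Serpina1 copies a to e are near-identical and were all called higher, Serpina1b not with rescaling, but how reads were split among them is uncertain. Serpinf1 was 62.9 ± 23.5 TPM in exMidgut and 2.45 ± 0.951 TPM in YsEndo, and Serpina6, the corticosteroid carrier, 10.3 ± 4.02 and 0.0787 ± 0.103. Alb, albumin itself, was low in both tissues at 1.75, 2.56, 4.38 and 1.895 TPM in exMidgut and 0, 0.793, 0 and 0 TPM in YsEndo, and its call was lost under quantile normalisation (0.95). Serpina6 and Alb passed the filter through exMidgut, so that their rise carries no weight of its own.

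Of 28 genes of clotting and complement, 19 were tested, of which 13 were lower in exMidgut and 1 was higher, with a median of -1.68. Through YsEndo 3 of the tested genes passed the filter, and through exMidgut 1, Masp1. The counts stand beside 10.7% of all tested genes that were lower and 33.5% that were higher. Fga, the alpha chain of fibrinogen, was 7.07, 39.95, 33.3 and 16.8 TPM in exMidgut and 326, 354, 413 and 378 TPM in YsEndo, so that the highest exMidgut library lay far below the lowest YsEndo library (-4.12 ± 0.4 SE, limma adjusted p = 3.35e-06). F10, clotting factor X, differed by -4.09 ± 0.36, from 6.96 ± 4.32 TPM in exMidgut to 119 ± 17.4 TPM in YsEndo, and the mannose-binding lectin Mbl2 was 0, 0, 1.07 and 0 TPM in exMidgut and 122, 106, 109.7 and 106 TPM in YsEndo. The complement protease Masp1 was the gene that rose, at 8.03, 25.1, 14.6 and 10.3 TPM in exMidgut and 0.481, 0.0893, 0.0129 and 0.203 TPM in YsEndo (3.59 ± 0.35 SE, limma adjusted p = 3.27e-06).

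Lipoprotein genes gave the lowest median of the lists of more than 20 tested genes, at -2.78. Of 24 tested, 18 were lower in exMidgut and 1 higher, and their sum was 1807 to 4985 TPM in exMidgut and 42993 to 51825 TPM in YsEndo. The filter was passed through YsEndo by 2 of the tested genes. Beside the 18 and the 1, 10.7% of all tested genes were lower and 33.5% higher. Apoa1, the main protein of high-density lipoprotein, was 440.1, 1579.7, 2409.9 and 1332 TPM in exMidgut and 14160.3, 18414, 19249 and 19159 TPM in YsEndo. In exMidgut it was lowest in replicate 1 and highest in replicate 3, and all 4 lay far below YsEndo (-3.85 ± 0.39 SE, limma adjusted p = 4.47e-06). Apoa2 was 47.97, 222, 213 and 122 TPM in exMidgut and 6265, 5749, 6184 and 6351 TPM in YsEndo (-5.56 ± 0.37 SE, limma adjusted p = 1.78e-07). Apoa4 was 14.3, 86.5, 117 and 31.02 TPM in exMidgut and 1843, 2718, 3038 and 2825 TPM in YsEndo (-5.76 ± 0.5 SE, limma adjusted p = 1.46e-06). Both are exchangeable apolipoproteins, and both were lowest in exMidgut replicate 1. Apob, the scaffold of the secreted very-low-density particle, was 68.3, 181, 171 and 125 TPM in exMidgut and 1395, 1072, 1157 and 1163 TPM in YsEndo (-3.21 ± 0.25 SE, limma adjusted p = 5.47e-07). Apoe, the ligand of lipoprotein receptors, was 673, 1757, 1405 and 1020.0 TPM in exMidgut and 6762, 10853, 10848 and 10644 TPM in YsEndo (-3.07 ± 0.25 SE, limma adjusted p = 9.19e-07), and Apom was 131 ± 62.5 TPM in exMidgut and 3706 ± 266 TPM in YsEndo. Soat2, which esterifies cholesterol for packaging, was 0, 6.18, 18.9 and 2.69 TPM in exMidgut and 197, 206, 242 and 255 TPM in YsEndo and was listed at 0 in exMidgut replicate 1. Of the 21 list members tested against emMidgut, 9 were higher in exMidgut and 0 lower, among them Apoa1 (3.16), Apoa2 (4.24), Apoa4 (4.25), Apob (1.83) and Apoe (1.78). That comparison uses the same exMidgut libraries, so that the pair of results is not independent.

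Promoters of these secreted-protein genes were searched for the half-site GTTAAT, which reads as ATTAAC on the other strand and is known from promoters of liver-type genes. Both strands were read in the 250 bases before each RefSeq transcript start of build GRCm38.p6, where 6.43% of 32851 promoters hold it. Of the tested genes that matched by symbol, 489 of 9398 had a promoter with it (5.20%), against 78 of 990 genes called lower (7.88%) and 168 of 3115 called higher (5.39%). It stood before 11 of 20 matched serum protein genes, 4 of 14 clotting and complement genes and 2 of 15 lipoprotein genes. Among the serum proteins it was found in 3 of 8 genes called lower and in 7 of 10 called higher, the 5 near-identical Serpina1 copies among them. The longer HNF4 site CAAAGTCCA was in 0.384% of promoters and in none of these lists. Over the tested genes it stood before 40 of 9398 (0.426%), 8 of the 990 called lower (0.808%) and 9 of the 3115 called higher (0.289%). The 250 bases before the start of Afp (chr5:90490464-90490713, plus strand), of Apoc2 (chr7:19677942-19678191, minus strand) and of Fga (chr3:83025903-83026152, plus strand) are shown, 5′ to 3′ on the strand of the gene, because they carry the half-site and were an abundant serum protein, the largest fall among lipoprotein genes and a fibrinogen gene. The half-site is in capitals and begins 105 bases before the start of Afp, 89 before that of Apoc2 and 43 before that of Fga.
Afp: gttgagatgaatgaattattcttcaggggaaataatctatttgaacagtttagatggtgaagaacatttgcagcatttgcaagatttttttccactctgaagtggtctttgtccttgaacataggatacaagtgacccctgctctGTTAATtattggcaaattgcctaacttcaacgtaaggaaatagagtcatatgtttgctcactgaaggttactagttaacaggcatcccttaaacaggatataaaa
Apoc2: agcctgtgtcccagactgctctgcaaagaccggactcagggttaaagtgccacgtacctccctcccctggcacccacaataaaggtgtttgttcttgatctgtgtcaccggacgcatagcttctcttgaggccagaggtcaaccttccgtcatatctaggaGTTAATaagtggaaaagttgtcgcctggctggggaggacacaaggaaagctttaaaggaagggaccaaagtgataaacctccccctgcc
Fga: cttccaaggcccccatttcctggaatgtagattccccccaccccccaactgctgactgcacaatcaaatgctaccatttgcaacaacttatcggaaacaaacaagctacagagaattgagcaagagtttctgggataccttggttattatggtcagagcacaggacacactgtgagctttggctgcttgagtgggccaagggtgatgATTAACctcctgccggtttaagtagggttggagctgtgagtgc
No other stretch of these sequences was compared with the levels.

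**Figure D2:**
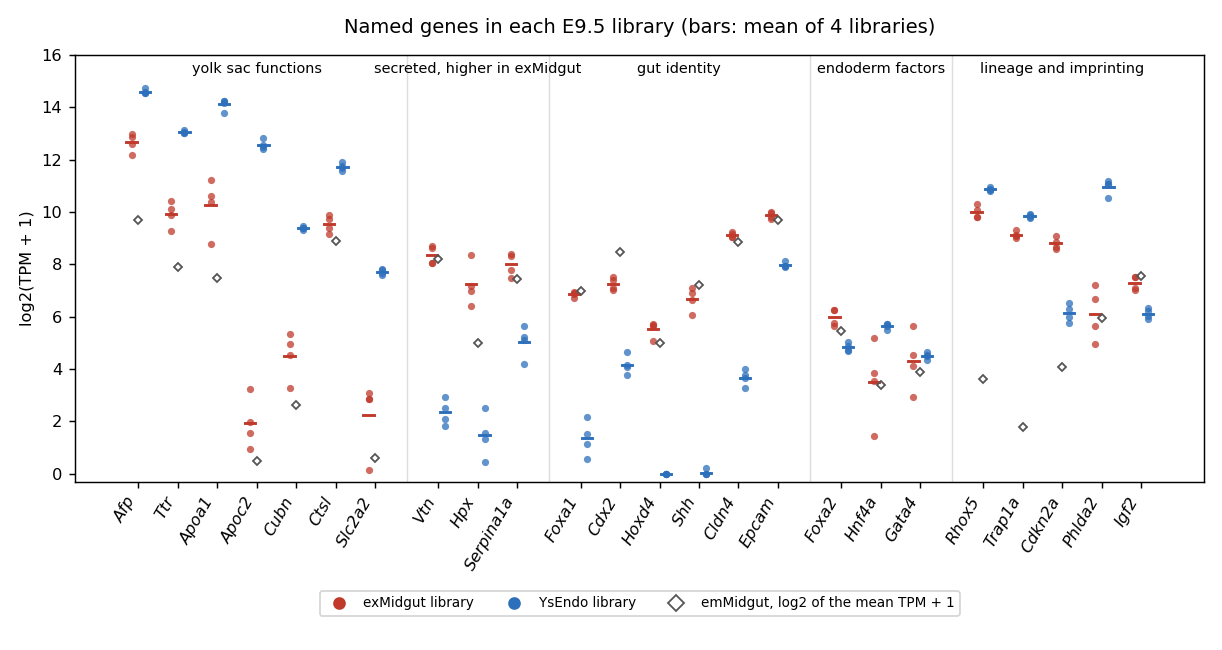
The vertical axis is log2(TPM + 1), filled points are single libraries of exMidgut (red) and YsEndo (blue), bars are the means of 4 libraries, and open diamonds are log2 of the mean emMidgut TPM plus 1. Afp, Ttr, Apoa1 and Cubn lie lower in exMidgut than in YsEndo and were called higher than in emMidgut, whereas Vtn, Foxa1, Shh and Cldn4 lie higher than in YsEndo and were not called against emMidgut.

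Endocytic receptors included falls and rises. Of 13 endocytic receptors and partners tested, 7 fell and 5 rose, with a median of -1.36 and sums of 714 to 998 TPM and 3958 to 4822 TPM. The 5 rises stand beside 33.5% of all tested genes that were higher, and the 7 falls beside 10.7% that were lower. Cubn, the multiligand receptor cubilin, was 8.58, 29.8, 39.6 and 21.99 TPM in exMidgut and 711, 638, 661 and 669 TPM in YsEndo (-4.87 ± 0.34 SE, limma adjusted p = 2.33e-07). Amn, the amnionless subunit that carries cubilin to the cell surface, was 21.4, 116, 85.4 and 46.7 TPM in exMidgut and 708, 1338, 1551 and 1521 TPM in YsEndo (-4.42 ± 0.43 SE, limma adjusted p = 3.49e-06). Dab2, a clathrin adaptor, was 33.8, 81.3, 82.8 and 46.99 TPM in exMidgut and 1274, 1246, 1066 and 1141 TPM in YsEndo (-4.34 ± 0.24 SE, limma adjusted p = 4.69e-08). In these 3 genes the groups were far apart and exMidgut replicate 1 was lowest. Lrp2, the receptor megalin, was 2.84, 4.36, 3.36 and 2.67 TPM in exMidgut and 74.6, 66.1, 74.2 and 70.2 TPM in YsEndo (-4.08 ± 0.2 SE, limma adjusted p = 1.76e-08), with close values within each group. Cubn (difference from emMidgut 1.94, limma adjusted p = 0.0224) and Amn (4.62, 0.000175) were called above emMidgut, while Dab2 and Lrp2 were not called there. Folr1, a folate receptor, was 209.9 ± 49.9 TPM in exMidgut and 706 ± 71.5 TPM in YsEndo. The members that rose were receptors found on many cell types, such as the transferrin receptor Tfrc (61.8, 56.1, 60.5 and 54.5 TPM in exMidgut and 25.2, 24.1, 12.5 and 12.3 TPM in YsEndo) and Lrp1 (24.97 ± 4.098 and 5.08 ± 1.31 TPM), and Vldlr at low levels (4.501 ± 2.2 and 0.154 ± 0.199 TPM). With rescaling, 3 of these 5 rises were called, where 22.8% of all tested genes were higher. Vldlr passed the filter through exMidgut alone, so that its rise carries no weight of its own.

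Lysosomal genes had more calls lower than higher. Of 42 tested, 19 were lower and 7 higher in exMidgut, with a median of -0.56, and their sum was 4572 to 5887 TPM in exMidgut and 14705 to 16341 TPM in YsEndo. The 7 stand beside 33.5% of all tested genes that were higher, and the 19 beside 10.7% that were lower. Several cathepsins, the proteases of the lysosome, fell. Ctsl was 576, 853, 952 and 662 TPM in exMidgut and 3417, 3852, 3064 and 3268 TPM in YsEndo (-2.18 ± 0.15 SE, limma adjusted p = 1.76e-07). Ctsc was 24.4, 60.1, 27.2 and 14.4 TPM in exMidgut and 1020.0, 947, 824 and 856 TPM in YsEndo (-4.99 ± 0.31 SE, limma adjusted p = 1.09e-07), and Ctsh 48.3 ± 13.9 and 1024 ± 81.9 TPM. The protease legumain (Lgmn) was 39.8, 108, 77.9 and 82.1 TPM in exMidgut and 1061, 1194, 1060.3 and 1008 TPM in YsEndo, and Ctsb 101 ± 12.3 and 626 ± 33.8 TPM. In each of these genes the lowest YsEndo library lay above the highest exMidgut library. In the other direction Ctsf was 64.2, 59.6, 42.3 and 65.9 TPM in exMidgut and 6.43, 4.03, 4.67 and 3.32 TPM in YsEndo (3.4 ± 0.24 SE, limma adjusted p = 2.21e-07). The glycosidase Gusb was 92.4, 87.3, 92.03 and 74.4 TPM in exMidgut and 11.1, 8.58, 13.2 and 9.62 TPM in YsEndo (2.92 ± 0.18 SE, limma adjusted p = 8.25e-08).

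Of 23 nutrient transporters tested, 16 were lower in exMidgut and 4 higher (median -1.7), and with rescaling 16 and 2. The filter was passed through YsEndo by 2 of these and through exMidgut by 1, Slc38a4. For transporters and brush border genes alike, 10.7% of all tested genes were lower and 33.5% higher, or 18.4% and 22.8% with rescaling. Slc2a2, the low-affinity glucose transporter GLUT2, was 0.1002, 6.297, 6.23 and 7.41 TPM in exMidgut and 228, 220.0, 193 and 203 TPM in YsEndo, and exMidgut replicate 1 lay far below the other libraries of its group (-5.49 ± 0.52 SE, limma adjusted p = 2.92e-06). The amino acid transporters Slc7a9 (3.73, 21.5, 29.9 and 8.38 TPM in exMidgut and 196, 259, 253 and 275 TPM in YsEndo) and Slc7a8 (4.18 ± 3.73 and 106 ± 12.5 TPM) and the zinc transporter Slc39a5 (15.9 ± 9.997 and 219 ± 27.3 TPM) differed by -4.21, -4.59 and -3.97 on the log2 scale. The amino acid transporter Slc38a4 rose, from 0.449, 0.367, 0.781 and 0.888 TPM in YsEndo to 32.6, 27.3, 15.4 and 16.6 TPM in exMidgut, and it was higher still in emMidgut at 102 ± 16.8 TPM (difference from emMidgut -2.16, limma adjusted p = 0.000125). Of 21 brush border genes, 16 were tested, of which 8 fell and 2 rose, or 10 and 1 with rescaling. Vil1, the microvillus protein villin, was 11.6, 19.6, 36.01 and 20.5 TPM in exMidgut and 90.1, 95.3, 92.9 and 94.2 TPM in YsEndo (-2.14 ± 0.26 SE, limma adjusted p = 2.22e-05). The scaffold Pdzk1 was 71.3, 60.3, 18.9 and 14.5 TPM in exMidgut and 368, 276, 328 and 349 TPM in YsEndo. The intermicrovillar cadherin Cdhr2 was 0, 4.52, 0 and 2.14 TPM in exMidgut and 59.3, 60.9, 78.7 and 76.2 TPM in YsEndo, and all 3 genes were separated between the groups. Ezrin (Ezr) was 210.5 ± 24.9 TPM in exMidgut and 338 ± 6.44 TPM in YsEndo and was not called on the TPM scale (-0.69), only with rescaling (-1.21).

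Genes of the general machinery of secretion were not called higher. Of 35 genes of the endoplasmic reticulum and early secretory pathway tested, 7 were lower and 0 higher, with a median of -0.46, and with rescaling 16 were lower. The 7 stand beside 10.7% of all tested genes that were lower, and the 16 beside 18.4%. Its sum was 7496 to 8650.5 TPM in exMidgut and 10503 to 11396 TPM in YsEndo. The chaperone Hsp90b1 was 828 ± 79.8 and 1068 ± 84.8 TPM and was not called. The 2 lowest differences were those of transcription factors. Creb3l3, which is membrane-bound and drives lipid transport genes, was 3.28, 6.42, 1.56 and 0 TPM in exMidgut and 112, 166, 162 and 169 TPM in YsEndo (-5.66 ± 0.48 SE, limma adjusted p = 1.12e-06). Xbp1, of the unfolded protein response, was 120.3, 120.0, 114 and 123 TPM in exMidgut and 442, 463, 565 and 516 TPM in YsEndo (-2.04 ± 0.11 SE, limma adjusted p = 2.81e-08), with close values within each tissue.

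Metabolic genes were divided. Of 21 liver-type metabolic genes, 11 were tested, of which 8 fell and 2 rose (median -2.76). Ass1, an enzyme that makes argininosuccinate, was 38.5, 11.6, 39.1 and 15.8 TPM in exMidgut and 614, 605, 725 and 642 TPM in YsEndo (-4.74 ± 0.32 SE, limma adjusted p = 2.03e-07). Arg1, which cleaves arginine to urea and ornithine, went the other way, at 301, 261, 396 and 388 TPM in exMidgut and 4.13, 1.48, 3.55 and 1.44 TPM in YsEndo (6.59 ± 0.27 SE, limma adjusted p = 5.52e-09), and emMidgut held 442 ± 72.1 TPM. Of 16 glycolytic genes, 6 rose and 1 fell, on both scales, where 33.5% of all tested genes were higher and 10.7% lower on the TPM scale. Ldhb was 663, 369, 462 and 526 TPM in exMidgut and 33.3, 39.8, 49.3 and 53.3 TPM in YsEndo (3.48 ± 0.19 SE, limma adjusted p = 4.38e-08). The hexokinase Hk2 was 52.4 ± 21.4 and 4.62 ± 1.5 TPM and Pfkl 325 ± 56.3 and 65.5 ± 12.2 TPM. Pyruvate kinase (Pkm) was 2588, 1978, 2199 and 1819 TPM in exMidgut and 414, 597, 603 and 577 TPM in YsEndo (1.97 ± 0.14 SE, limma adjusted p = 2.87e-07). In cholesterol synthesis 1 of 21 genes was higher (Sqle, 34.9 ± 13.4 and 10.4 ± 2.17 TPM, lost under quantile normalisation at 0.97) and 2 were lower, or 4 with rescaling.

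Respiration and translation took large shares of the TPM in both tissues. Subunits of oxidative phosphorylation summed to 33894 to 38348 TPM in exMidgut and 52304 to 56937 TPM in YsEndo, and of 79 tested 10 were called lower and 2 higher (median -0.57). The 10 stand beside 10.7% of all tested genes that were lower. With rescaling 47 subunits were lower (median -1.1), where 18.4% of all tested genes were, so that their count depends on the scale. Cytosolic ribosomal proteins summed to 143625 to 148373 TPM in exMidgut and 96091 to 100868 TPM in YsEndo, with 5 of 77 called higher. Their median of 0.55 was close to the 0.51 of all genes, and with rescaling it was 0.03 and 1 was called higher. Over all tested genes 33.5% were higher, or 22.8% with rescaling.

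**Figure D3:**
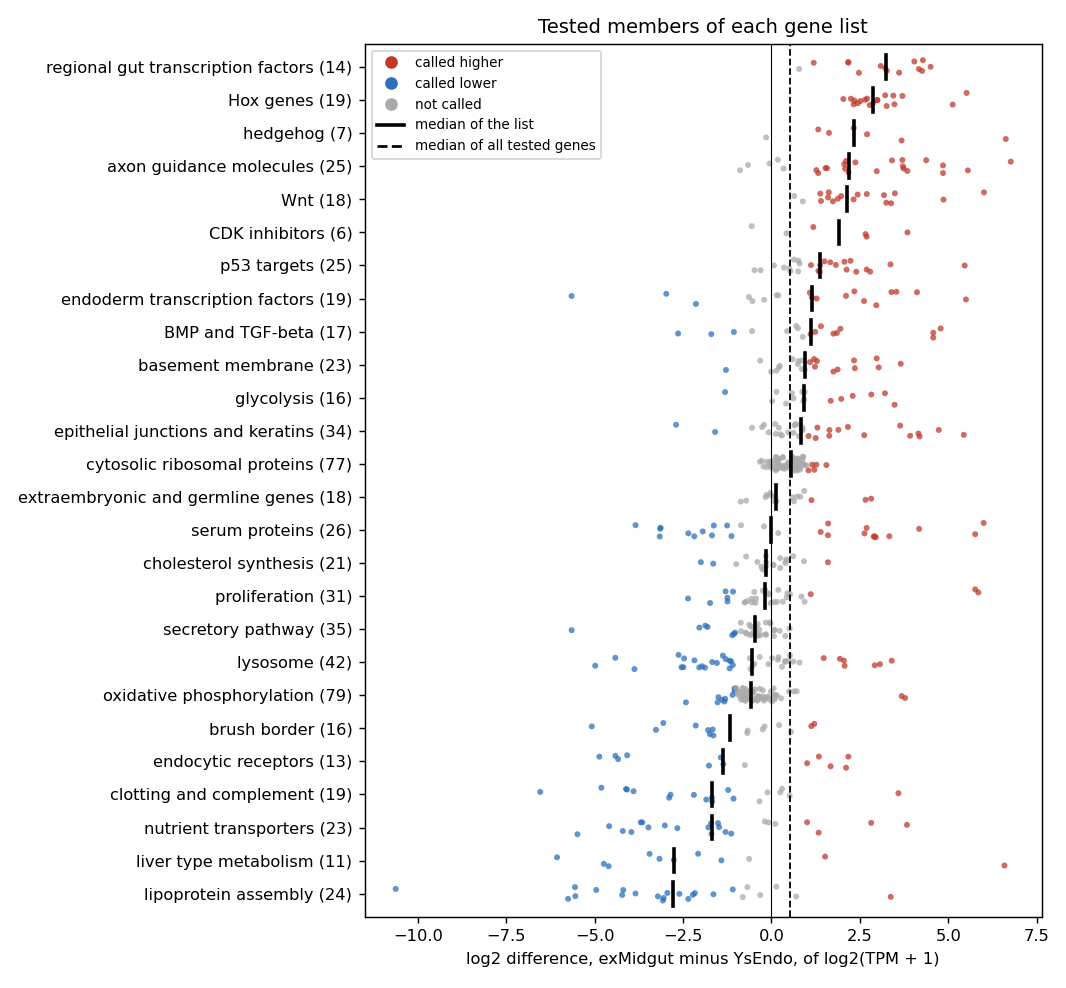
Each point is a tested member of the list named at the left (number of tested members in brackets), placed by its log2 difference, exMidgut minus YsEndo, of log2(TPM + 1). Black bars are list medians, which run from -2.78 for lipoprotein assembly to 3.24 for regional gut transcription factors, and the dashed line is the median of all tested genes, 0.51.

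Transcription factors of endoderm were shared in part. Of 23 listed, 19 were tested, of which 11 were higher in exMidgut and 3 lower, and with rescaling 8 and 4. Beside these counts, 33.5% of all tested genes were higher and 10.7% lower, or 22.8% and 18.4% with rescaling. Through exMidgut alone 3 of the tested factors passed the filter. Foxa1, a pioneer factor of gut and liver, was 122, 103, 119 and 116 TPM in exMidgut and 3.51, 0.481, 1.903 and 1.22 TPM in YsEndo (5.5 ± 0.3 SE, limma adjusted p = 4.2e-08). The exMidgut libraries lay close to each other and to emMidgut (124 ± 20.5 TPM). Its relatives Foxa2 (75.4, 53.3, 74.7 and 49.3 TPM in exMidgut and 25.01, 25.9, 28.4 and 31.5 TPM in YsEndo) and Foxa3 (47.9, 48.5, 89.2 and 56.3 TPM in exMidgut and 25.7, 21.3, 25.6 and 21.9 TPM in YsEndo) were present in both tissues, and their differences of 1.14 ± 0.18 and 1.28 ± 0.21 were called on the TPM scale but not with rescaling (0.63 and 0.76). Hnf4a, a nuclear receptor that drives liver-type genes, was 1.71, 13.51, 35.3 and 10.6 TPM in exMidgut and 48.6, 44.3, 51.8 and 51.5 TPM in YsEndo (-2.14 ± 0.58 SE, limma adjusted p = 0.00646), so that exMidgut replicate 1 was almost without it and replicate 3 approached the YsEndo level. Gata4 was also lowest in exMidgut replicate 1 and highest in replicate 3, at 6.55, 16.6, 48.8 and 22.1 TPM in exMidgut and 19.3, 22.2, 21.9 and 24.05 TPM in YsEndo, and overlapped between the groups (-0.21 ± 0.44, limma adjusted p = 0.695). Its relative Gata6 was higher in exMidgut, at 24.6, 21.4, 19.8 and 38.2 TPM in exMidgut and 2.62, 3.598, 3.86 and 3.07 TPM in YsEndo (2.62 ± 0.26 SE, limma adjusted p = 4.06e-06). Sox17 (1.55 ± 2.19 and 2.51 ± 2.33 TPM) overlapped between the groups and was called only under quantile normalisation (-1.35). The orphan receptor Nr2f2 was 139.9, 108, 124 and 168 TPM in exMidgut and 9.91, 6.38, 6.53 and 4.897 TPM in YsEndo (4.12 ± 0.22 SE, limma adjusted p = 3.16e-08). It and Onecut1 (18.7 ± 8.12 and 0.609 ± 0.243 TPM) were higher in exMidgut, and neither was called against emMidgut (104 ± 11.5 and 12.1 ± 5.68 TPM).

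Most tested factors that pattern the gut were called higher in exMidgut. Of 26 regional factors, 14 were tested, of which 13 were called higher and 0 lower (median 3.24). Of these, 10, Sox9, Osr2 and Isx among them, lay at or under 1 TPM in all 4 YsEndo libraries and passed the filter through exMidgut, so that their direction carries no weight of its own. Cdx2, which sets intestinal identity, was 137, 127, 167 and 179.9 TPM in exMidgut and 12.8, 15.8, 23.9 and 16.7 TPM in YsEndo (3.09 ± 0.2 SE, limma adjusted p = 1.18e-07). YsEndo thus held some Cdx2, and exMidgut stayed below emMidgut, at 349 ± 51.4 TPM there (difference -1.19, limma adjusted p = 0.000241). Cdx1 was listed at 0 in all 8 libraries. Sox9, an early epithelial factor, was 22.6, 17.8, 22.7 and 27.1 TPM in exMidgut and 0, 0.0126, 0.0855 and 0.0201 TPM in YsEndo (4.5 ± 0.25 SE, limma adjusted p = 4.58e-08). Osr2 was 33.6, 5.66, 29.4 and 29.1 TPM in exMidgut and 0, 0.425, 0.0251 and 0 TPM in YsEndo, with exMidgut replicate 2 far below the others. The intestinal homeobox gene Isx was 11.7, 23.3, 34.7 and 8.49 TPM in exMidgut and listed at 0 in all 4 YsEndo libraries. Tbx3 was the member that was not called, at 29.7, 15.7, 10.9 and 18.4 TPM in exMidgut and 6.64, 11.9, 9.62 and 11.8 TPM in YsEndo (0.78 ± 0.3).

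Hox genes, which give position along the body axis, separated the tissues without exception among those tested. Of 39 genes, 19 passed the filter, and all of these were called higher in exMidgut on both scales, with differences from 2.03 to 5.52 (median 2.88). Of these, 16 lay at or under 1 TPM in all 4 YsEndo libraries and passed it through exMidgut, so that their direction carries no weight of its own. The list summed to 324, 281, 169.9 and 287 TPM in the exMidgut libraries and to 4.18 to 6.96 TPM in YsEndo. Hoxd4 was 48.5, 50.4, 32.3 and 51.4 TPM in exMidgut and Hoxa10 43.7, 31.8, 22.97 and 41.3 TPM, and both were listed at 0 in all 4 YsEndo libraries. In emMidgut the means were 30.9 ± 4.44 and 44.2 ± 24.4 TPM, and none of the Hox genes was called higher in exMidgut than in emMidgut.

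Both tissues held epithelial genes. Of 34 genes of junctions and keratins tested, 14 were higher and 2 lower (median 0.82), and with rescaling 11 and 3. The 14, which include Epcam, stand beside 33.5% of all tested genes that were higher, and 2 tested members passed the filter through exMidgut. The adherens junction protein Cdh1 (148, 166, 154 and 156 TPM in exMidgut and 104, 92.02, 105 and 94.8 TPM in YsEndo) and the simple-epithelium keratin Krt8 (1574 ± 282 and 912 ± 98.2 TPM) were higher in each exMidgut library than in any YsEndo library but were not called (0.65 and 0.78). Krt19 was 711, 671, 619 and 518 TPM in exMidgut and 20.05, 23.6, 32.5 and 16.7 TPM in YsEndo (4.73 ± 0.19 SE, limma adjusted p = 4.86e-09). The sealing claudin Cldn4 was 571, 520.1, 598 and 532 TPM in exMidgut and 15.03, 11.5, 12.7 and 8.77 TPM in YsEndo (5.44 ± 0.16 SE, limma adjusted p = 5.72e-10). Cldn2, which forms cation pores, was 13.98, 76.6, 65.9 and 35.2 TPM in exMidgut and 288, 243, 263 and 267 TPM in YsEndo (-2.7 ± 0.4 SE, limma adjusted p = 0.000101). Epcam, the antigen of the bead enrichment, was 996, 1029.8, 841 and 899 TPM in exMidgut and 245, 244, 279.8 and 239 TPM in YsEndo.

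Of 28 basement membrane genes, 23 were tested, of which 11 were higher and 1 was lower in exMidgut. The 11 stand beside 33.5% of all tested genes that were higher. Through exMidgut 3 tested members, Lamb3 among them, passed the filter. The laminin chain Lamb3 was 16.04, 12.1, 8.08 and 14.9 TPM in exMidgut and 0, 0.268, 0 and 0 TPM in YsEndo. The collagen Col18a1 was 91, 80.4, 67.97 and 91.6 TPM in exMidgut and 8.18, 11.2, 7.96 and 9.65 TPM in YsEndo (3.03 ± 0.18 SE, limma adjusted p = 7.47e-08). The gene that fell was Nid2, a nidogen that links laminin and collagen, at 38.7, 58.9, 25.6 and 15.03 TPM in exMidgut and 63.6, 77.3, 81.1 and 86.1 TPM in YsEndo (-1.29 ± 0.32 SE, limma adjusted p = 0.00415), where exMidgut replicate 2 came close to the YsEndo range. Without exMidgut replicate 4 this difference was -0.96, too small for a call. With rescaling 7 of the rises were called, where 22.8% of all tested genes were higher.

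Molecules first named for axon guidance, which also act on epithelia and vessels, were higher in 20 of 25 tested genes of 34 listed and lower in 0 (median 2.18). With rescaling 18 were higher and 2 lower. Of the tested genes 12, Robo2, Sema3c and Nrp1 among them, passed the filter through exMidgut alone, so that their direction carries no weight of its own. Over all tested genes 33.5% were higher, or 22.8% with rescaling. The Slit receptor Robo2 was 157, 101, 82.8 and 124 TPM in exMidgut and 0.107, 0, 0.0649 and 0 TPM in YsEndo (6.77 ± 0.25 SE, limma adjusted p = 2.3e-09). The semaphorin Sema3c was 53.3 ± 10.4 and 0.143 ± 0.135 TPM, and its receptor Nrp1 27.05, 31.3, 40.8 and 47.9 TPM in exMidgut and 0.2804, 0.998, 0 and 0.0368 TPM in YsEndo (4.85 ± 0.31 SE, limma adjusted p = 1.15e-07). The ephrin ligand Efna1 was 188, 141, 167 and 97.6 TPM in exMidgut and 4.93, 5.28, 5.46 and 1.64 TPM in YsEndo (4.85 ± 0.31 SE, limma adjusted p = 1.15e-07).

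Among pathways of developmental signalling, in hedgehog 6 of 7 tested genes, of 14 listed, rose and 0 fell, and with rescaling 5 rose. Shh and Gli3 passed the filter through exMidgut, so that their direction carries no weight of its own. For hedgehog and Wnt alike, 33.5% of all tested genes were higher, or 22.8% with rescaling. The ligand Shh was 136, 97.6, 66.8 and 120.4 TPM in exMidgut and 0.156, 0, 0 and 0 TPM in YsEndo (6.63 ± 0.26 SE, limma adjusted p = 4.86e-09). The second ligand, Ihh, was present in both tissues at 29.5, 25.4, 51.3 and 52.1 TPM in exMidgut and 10.7, 10.6, 12.7 and 12.2 TPM in YsEndo (1.63 ± 0.25 SE, limma adjusted p = 0.000135). Ptch1, both receptor and transcriptional target of the pathway, was 37.2, 14.9, 15.7 and 38.7 TPM in exMidgut and 4.08, 3.38, 5.91 and 3.15 TPM in YsEndo (2.33 ± 0.35 SE, limma adjusted p = 0.000107). The effector Gli3 was 22.01, 8.41, 7.22 and 15.2 TPM in exMidgut and 0, 0, 0 and 0.0626 TPM in YsEndo. In the Wnt pathway 16 of 18 tested genes, of 32 listed, rose and 0 fell (median 2.15), and with rescaling 15 rose. Here 8 of the tested genes, Lef1 and Fzd2 among them, passed the filter through exMidgut alone, so that their direction carries no weight of its own. The nuclear effector Lef1 was 114, 85.8, 33.4 and 54.4 TPM in exMidgut and 0.0933, 0, 0 and 0 TPM in YsEndo (6.01 ± 0.35 SE, limma adjusted p = 6.39e-08). The receptor Fzd2 was 40.7, 41.5, 44.4 and 42.2 TPM in exMidgut and 0.904, 0.278, 0.0194 and 0.934 TPM in YsEndo. The feedback inhibitor Rnf43 was 31.2, 14.2, 14.6 and 27.2 TPM in exMidgut and 0.745, 0.719, 1.74 and 0.636 TPM in YsEndo, and the groups were far apart for this gene.

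The BMP and TGF-beta family was divided between the tissues, with 9 of 17 tested genes, of 27 listed, higher and 3 lower in exMidgut, or 7 and 4 with rescaling. For this family and the pathways that follow, 33.5% of all tested genes were higher and 10.7% lower. With rescaling these shares were 22.8% and 18.4%. Bmp4 was 58.4, 30.3, 14.9 and 44.8 TPM in exMidgut and 0.922, 1.16, 0 and 0 TPM in YsEndo (4.58 ± 0.43 SE, limma adjusted p = 2.48e-06) and Tgfb2 was 36.2 ± 22.2 and 0.214 ± 0.335 TPM. The rise of Tgfb2 carries no weight of its own, because it passed the filter through exMidgut alone. By contrast Bmp6 (0.503 ± 0.666 and 7.86 ± 1.56 TPM, -2.64 ± 0.34) and Bmp7 (4.84, 6.89, 6.74 and 4.77 TPM in exMidgut and 19.4, 20.1, 21.7 and 22.8 TPM in YsEndo, -1.7 ± 0.22 SE, limma adjusted p = 3.13e-05) were higher in YsEndo. In the FGF pathway 4 of 10 tested genes, of 17 listed, rose and 3 fell, or 2 and 5 with rescaling. The receptor Fgfr2 was 56.3, 46.6, 47.8 and 37.2 TPM in exMidgut and 0.398, 0.347, 0.0257 and 0.0764 TPM in YsEndo (5.31 ± 0.25 SE, limma adjusted p = 1.42e-08). Fgfr2 passed the filter through exMidgut alone, so that its rise carries no weight of its own. Klb, the co-receptor of endocrine FGFs, was 1.696, 14.9, 12.9 and 7.82 TPM in exMidgut and 47.3, 49.99, 56.7 and 53.9 TPM in YsEndo (-2.63 ± 0.45 SE, limma adjusted p = 0.000286). In the Notch pathway 4 of 6 tested genes, of 15 listed, rose and 0 fell, with Notch3 at 14.4 ± 2.897 and 0.0989 ± 0.0424 TPM. Here 2 of the tested genes, Notch3 among them, passed the filter through exMidgut, so that their rise carries no weight of its own. The target Hes1 was 120.2, 164, 188 and 144 TPM in exMidgut and 28.4, 13.02, 25.02 and 19.2 TPM in YsEndo (2.82 ± 0.23 SE, limma adjusted p = 7.88e-07). In the retinoic acid pathway 6 of 11 tested genes, of 18 listed, rose and 1, Rbp4, fell, and with rescaling 4 rose. The receptor Rarb was 87.4, 108, 117 and 77.4 TPM in exMidgut and listed at 0 in all 4 YsEndo libraries, Rarg was 8.96 ± 4.15 and 0.0178 ± 0.0356 TPM. Rarb and Rarg passed the filter through exMidgut, so that their direction carries no weight of its own. The retinoic acid-degrading enzyme Cyp26a1 was 0.0634, 0, 1.03 and 1.46 TPM in exMidgut and 0.67, 3.69, 13.8 and 0.615 TPM in YsEndo, a difference of -1.29 ± 0.64 that was not called (limma adjusted p = 0.0972) but was without YsEndo replicate 4 (-1.68) and under quantile normalisation (-2.01).

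Of 31 proliferation genes, 3 were higher and 6 lower (median -0.18), where 33.5% of all tested genes were higher and 10.7% lower. With rescaling 2 were higher and 12 lower (median -0.7). They were more spread in exMidgut, where the list summed to 3880.4, 2655, 1915 and 2801 TPM, than in YsEndo, at 3434 to 3589 TPM. The D cyclins, which answer to growth signals, were among the rises. Ccnd1 was 117, 69.9, 58.3 and 125 TPM in exMidgut and 0.719, 1.33, 0.231 and 0.471 TPM in YsEndo (5.76 ± 0.31 SE, limma adjusted p = 3.5e-08). Ccnd2 was 54.6, 90.4, 109 and 132 TPM in exMidgut and 1.13, 0.9197, 0.252 and 0.3103 TPM in YsEndo (5.85 ± 0.31 SE, limma adjusted p = 3.16e-08). In YsEndo both were near 0, and Ccne1, the cyclin that follows them in the cell cycle, was higher there, at 16.6, 5.24, 29.7 and 33.3 TPM in exMidgut and 88.3, 87.2, 109 and 92.4 TPM in YsEndo (-2.36 ± 0.43 SE, limma adjusted p = 0.000437). The mitotic protein Birc5 was 315, 188, 138 and 172 TPM in exMidgut and 643, 650.0, 641 and 657 TPM in YsEndo (-1.74 ± 0.2 SE, limma adjusted p = 1.24e-05).

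Inhibitors of cyclin-dependent kinases were higher in 4 of 6 tested cases, and with rescaling 3 were higher and 1 lower. Beside these counts, 33.5% of all tested genes were higher, or 22.8% higher and 18.4% lower with rescaling. Cdkn2a, the locus of p16 and p19ARF, was 405, 381, 463 and 547 TPM in exMidgut and 52.7, 62.7, 77.4 and 91.1 TPM in YsEndo (2.66 ± 0.17 SE, limma adjusted p = 1.52e-07). Both tissues lay above the emMidgut mean of 16.1 ± 6.83 TPM. Its neighbour Cdkn2b was 57.7, 37.5, 35.3 and 50.9 TPM in exMidgut and 0.765, 3.68, 2.39 and 2.54 TPM in YsEndo (3.85 ± 0.31 SE, limma adjusted p = 8.12e-07). Cdkn1a, the inhibitor p21 and a p53 target, was 238, 225, 378 and 279 TPM in exMidgut and 29.8, 44.4, 39.2 and 57.4 TPM in YsEndo (2.69 ± 0.21 SE, limma adjusted p = 5.43e-07). Cdkn2a (difference from emMidgut 4.8, limma adjusted p = 2.7e-08) and Cdkn2b (2.98, 9.09e-05) were also called above emMidgut, and Cdkn1a was not (0.42, 0.174).

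Targets of p53, the stress-activated transcription factor, were higher in 15 of 25 tested genes and lower in 0 (median 1.36), and with rescaling 10 were higher. The 15 targets stand beside 33.5% of all tested genes that were higher, and the 10 beside 22.8%. Next to this, the list was also summed in all 3 tissues. The sum of the list was 1464 to 1702 TPM in exMidgut, 594 to 691 TPM in YsEndo and 953 to 1063 TPM in emMidgut. Trp53 itself was 184, 136, 141 and 171 TPM in exMidgut and 41.7, 45.7, 64.1 and 49.9 TPM in YsEndo (1.64 ± 0.16 SE, limma adjusted p = 3.83e-06), with 199.9 ± 27.6 TPM in emMidgut. Ccng1, a cyclin-like target, was 78.7, 114, 63.01 and 135 TPM in exMidgut and 31.8, 30.7, 22.7 and 31.3 TPM in YsEndo (1.66 ± 0.23 SE, limma adjusted p = 5.84e-05), above both YsEndo and emMidgut (21.4 ± 8.498 TPM). Plk2, a polo-like kinase, was 155, 116, 85.96 and 110.2 TPM in exMidgut and 2.28, 2.33, 1.09 and 1.03 TPM in YsEndo (5.47 ± 0.26 SE, limma adjusted p = 1.42e-08). Phlda3, an inhibitor of AKT signalling, was 59.7, 83.4, 63.7 and 55.3 TPM in exMidgut and 3.02, 7.68, 4.23 and 8.03 TPM in YsEndo (3.37 ± 0.28 SE, limma adjusted p = 9.05e-07). Eda2r, a death-domain receptor, was 21.6 ± 9.25 TPM in exMidgut, 2.13 ± 0.823 in YsEndo and 2.35 ± 1.57 in emMidgut. The apoptosis effector Bax was 451, 472, 481 and 567 TPM in exMidgut and 272, 313, 338 and 345 TPM in YsEndo and was not called (0.63 ± 0.11).

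Few genes that mark extraembryonic origin were called. Of 23 extraembryonic and germline genes, 18 were tested, of which 3 were higher in exMidgut and 0 lower, with a median of 0.12 that turned to -0.34 with rescaling. Their sum was 3089 to 3522 TPM in exMidgut, 3680.3 to 3907 TPM in YsEndo and 12.8 to 186 TPM in emMidgut. The 3 higher genes stand beside 33.5% of all tested genes that were higher. Rhox5, an X-linked homeobox gene of extraembryonic tissue, was 891, 1079.6, 1261 and 895 TPM in exMidgut and 1771, 2005, 1818 and 1884 TPM in YsEndo. The X-linked antigen gene Trap1a was 541, 633, 556 and 513 TPM in exMidgut and 958, 954, 881 and 885 TPM in YsEndo. The exMidgut libraries all lay below YsEndo in both genes, and the differences of -0.87 ± 0.11 and -0.72 ± 0.09 were called only with rescaling (-1.4 and -1.24). In emMidgut they were 11.4 ± 11.8 and 2.49 ± 4.7 TPM. Besides Cdkn2a the rises were Xlr5a and Slc25a31. Xlr5a was 179.9, 167, 168 and 154 TPM in exMidgut and 86.2, 70.4, 77.4 and 69.5 TPM in YsEndo and was not called with rescaling (0.61). Slc25a31, a germline ADP and ATP carrier, was 21.5, 24.8, 25.3 and 26.2 TPM in exMidgut and 4.22, 3.09, 2.59 and 1.17 TPM in YsEndo (2.82 ± 0.29 SE, limma adjusted p = 4.81e-06). The Xlr and Rhox genes have near-identical copies, among which reads can be split differently.

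Of 11 genes of the DNA methylation machinery, 5 were higher and 0 lower, and with rescaling 2 were higher. The 5 stand beside 33.5% of all tested genes that were higher, and the 2 beside 22.8%. The de novo methyltransferases did not differ by the size needed for a call, with Dnmt3b at 38.8, 13.51, 19.5 and 14.9 TPM in exMidgut and 11.7, 18.3, 12.7 and 12.1 TPM in YsEndo (0.52 ± 0.31). Dnmt3a was 136 ± 12.4 and 93.4 ± 8.95 TPM. Trim28, a corepressor that keeps methylation at imprints, was 151, 161, 143 and 177 TPM in exMidgut and 45.5, 45.3, 53.3 and 48.2 TPM in YsEndo (1.69 ± 0.12 SE, limma adjusted p = 3.49e-07). Of 16 Polycomb genes, 8 rose and 1 fell, and 4 and 2 did so with rescaling. The same shares apply here, with 10.7% of all tested genes lower, or 18.4% with rescaling. Cbx2 was 35.8, 18.5, 13.3 and 15.2 TPM in exMidgut and 1.25, 0.693, 2.201 and 0.649 TPM in YsEndo (3.25 ± 0.35 SE, limma adjusted p = 8.04e-06). Cbx7 was 205, 152, 183 and 187 TPM in exMidgut and 85.8, 55.9, 69.9 and 78.6 TPM in YsEndo (1.32, not called with rescaling at 0.8), and both tissues lay above the emMidgut mean of 8.64 ± 2.76 TPM. Pcgf5, which fell, was 19.5, 3.75, 18.1 and 19.6 TPM in exMidgut and 42.5, 47.6, 41.1 and 35.9 TPM in YsEndo.

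Imprinted genes moved in both directions whichever parental copy is active. Of 7 tested maternally expressed genes 5 rose and 2 fell, and of 12 tested paternally expressed genes 8 rose and 1 fell, where 33.5% of all tested genes were higher and 10.7% lower. With rescaling 3 maternally expressed genes rose and 2 fell, and 7 paternally expressed genes rose and 1 fell. Phlda2, a maternally expressed brake on placental growth, was 100.3, 147, 29.7 and 48.97 TPM in exMidgut and 1472, 2146, 2313 and 2159.8 TPM in YsEndo (-4.85 ± 0.39 SE, limma adjusted p = 6.76e-07). Grb10, an adaptor that restrains insulin signalling, was 340.0, 349.6, 259.9 and 322 TPM in exMidgut and 35.2, 28.4, 26.7 and 21.2 TPM in YsEndo (3.48 ± 0.16 SE, limma adjusted p = 1.42e-08). H19, a maternally expressed noncoding RNA, was 740.3, 1108, 1181 and 784 TPM in exMidgut and 698, 810.5, 828 and 759 TPM in YsEndo and overlapped between the groups. Its paternally expressed neighbour Igf2, a growth factor, was 135, 182, 182 and 129.8 TPM in exMidgut and 78.6, 73.7, 64.4 and 58.9 TPM in YsEndo, a difference of 1.17 ± 0.16 SE, limma adjusted p = 4.34e-05 that was not called with rescaling (0.65). The paternally expressed Mest was 88.9, 116, 65.4 and 77.4 TPM in exMidgut and 4.03, 3.61, 2.65 and 4.46 TPM in YsEndo (4.21 ± 0.23 SE, limma adjusted p = 3.54e-08) and Ndn 46.6 ± 15.8 and 0.682 ± 0.584 TPM. Peg10 was higher in YsEndo, at 84.5, 90.3, 33.6 and 57.96 TPM in exMidgut and 294, 226, 244 and 252 TPM in YsEndo (-2.01 ± 0.26 SE, limma adjusted p = 3.11e-05).

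Of 6 tested genes of MHC class I presentation, 4 were higher and 1 was lower in exMidgut, or 2 and 2 with rescaling. Over all tested genes 33.5% were higher and 10.7% lower, or 22.8% and 18.4% with rescaling. H2-K1, a class I heavy chain of a multigene family, was 104, 56.5, 81.04 and 94.9 TPM in exMidgut and 14.7, 7.81, 14.9 and 8.98 TPM in YsEndo (2.77 ± 0.25 SE, limma adjusted p = 2.09e-06). The shared light chain B2m was 321, 370.4, 421 and 324 TPM in exMidgut and 553, 506, 607 and 469 TPM in YsEndo, below YsEndo in all exMidgut libraries and called only with rescaling (-0.57 and -1.1). The immunoproteasome subunit Psmb10 was the gene that fell (24.02 ± 13.8 and 53.5 ± 4.12 TPM).

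Immediate early genes, which are induced within minutes by stress and by handling, moved with the groups. Of 13 tested, 8 were higher and 4 lower in exMidgut on both scales. Over all tested genes 33.5% were higher and 10.7% lower, or 22.8% and 18.4% with rescaling. The list summed to 737 to 1273 TPM in exMidgut and 149.6 to 216 TPM in YsEndo. Jun was 291, 259.7, 391 and 254 TPM in exMidgut and 15.1, 12.8, 23.8 and 22.05 TPM in YsEndo (3.97 ± 0.21 SE, limma adjusted p = 3.24e-08). Fos was 166, 89.8, 213 and 61.3 TPM in exMidgut and 9.41, 2.74, 12.1 and 9.25 TPM in YsEndo (3.81 ± 0.43 SE, limma adjusted p = 1.24e-05). Egr1 was 34.7, 24.02, 41.7 and 19.8 TPM in exMidgut and 1.42, 0.0193, 0.588 and 0.989 TPM in YsEndo (4.16 ± 0.34 SE, limma adjusted p = 8.11e-07), and in these 3 genes the groups did not overlap. The heat-shock gene Hspa1b went the other way, at 2.69 ± 3.11 TPM in exMidgut and 14.1 ± 7.12 TPM in YsEndo. In emMidgut, whose cells also went through the bead enrichment, the sum was 497 to 898 TPM. The part of handling in these and in the p53 target levels cannot be told apart from tissue.

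**Figure D4:**
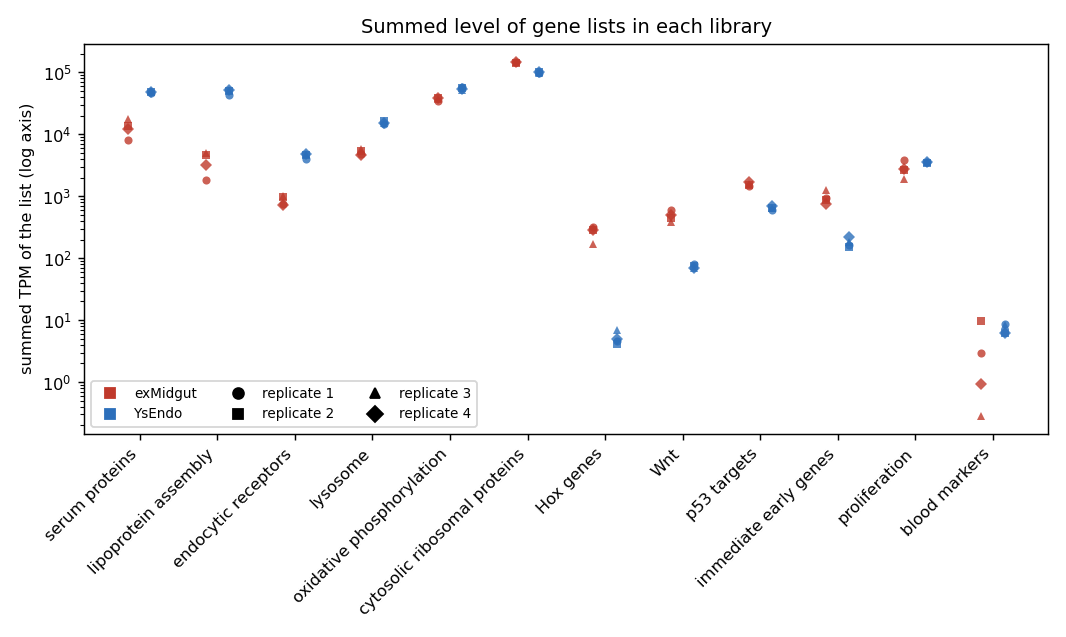
The vertical log axis is the summed TPM of each list, and every point is 1 library of exMidgut (red) or YsEndo (blue), with the replicate number shown by the symbol. The serum protein and lipoprotein sums of the exMidgut libraries lie lowest in replicate 1 and below every YsEndo library, and the blood marker sums stay below 10 TPM in both groups.

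The exMidgut libraries themselves varied in how much yolk sac-type RNA they held. The yolk sac markers summed to 6690.1, 12289, 14745 and 9785 TPM in replicates 1 to 4, and the lipoprotein genes to 1807, 4555, 4985 and 3244 TPM, in the same order from low to high. The emMidgut libraries held 1446 to 2975 TPM of the yolk sac markers, so that every exMidgut library lay above every emMidgut library. In bulk RNA of this kind fewer cells of a type and less RNA per cell cannot be told apart. The spread did not run through all genes lower in exMidgut: among the 1064 of these with untied values, replicate 1 was lowest in 29.3%, replicate 4 in 30.1%, replicate 3 in 24.6% and replicate 2 in 16%.

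The earlier comparison of exEndo 1 with exEndo 2, the distal and proximal extraembryonic endoderm of E6.5, shares no library with the comparison at E9.5. It gave 732 called genes of 11414 tested (6.41%), of which 452 were higher in exEndo 1 (3.96%) and 280 lower (2.45%). Of the 452, 382 were also tested at E9.5, and 246 of them (64.4%) were higher in exMidgut and 38 (9.95%) lower, where 30.1% and 10.6% of the 10807 genes tested at both stages were higher and lower. Of the 280, 244 were tested, and 94 (38.5%) were lower in exMidgut and 59 (24.2%) higher. Libraries of the same number deviated together at E6.5, and with the replicate number as a block 797 genes were called there. Read from E9.5, these shared genes were 7.55% of the genes higher and 8.22% of the genes lower in exMidgut that were tested at both stages. Of all 10807 genes tested at both stages, 382 were higher and 244 lower in exEndo 1.

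Among the genes named above, Igfbp2 was 254 ± 96.8 TPM in exEndo 1 and 4.71 ± 1.37 in exEndo 2 (difference 5.39 ± 0.31, limma adjusted p = 3.48e-06), the same direction as at E9.5. Foxa1 was 12.4 ± 4.73 and 0.187 ± 0.218 TPM (3.45 ± 0.27), Mest 334 ± 194 and 5.56 ± 6.23 TPM (5.71 ± 0.67) and Grb10 280.3 ± 150.4 and 30.2 ± 9.28 TPM (3.08 ± 0.31), all higher distally and all higher in exMidgut. Lower at both stages were Aqp8 (66.2 ± 14.8 and 373 ± 47.1 TPM), Phlda2 (63.6 ± 45.6 and 406 ± 191), Lrp2 (59.3 ± 18.6 and 162 ± 39.9) and Klb (16.4 ± 5.58 and 52.2 ± 11.7).

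Several genes had opposite directions at the stages. Afp was 2005 ± 496 TPM in exEndo 1 and 136 ± 73.3 TPM in exEndo 2 (4.13 ± 0.48, limma adjusted p = 0.000282), yet it was higher in YsEndo than in exMidgut at E9.5. The same held for Apob (801 ± 173 and 314 ± 93.3 TPM), Trf (114 ± 21 and 38.1 ± 13.8 TPM) and Ctsc (666 ± 124 and 241 ± 48.7 TPM). Robo2 and Ihh were lower in exEndo 1 (-1.98 and -1.4) and higher in exMidgut. The difference between the stages was not tested for single genes. Many yolk sac transcripts that separated the tissues at E9.5 were present on both sides at E6.5 without a call, such as Apoc2 (3031 ± 1168 and 4113 ± 1851 TPM), Npl (588 ± 120.0 and 647 ± 175 TPM), Cubn (518 ± 185 and 643 ± 153 TPM) and Hnf4a (54.96 ± 9.77 and 57.4 ± 7.68 TPM).

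**Figure D5:**
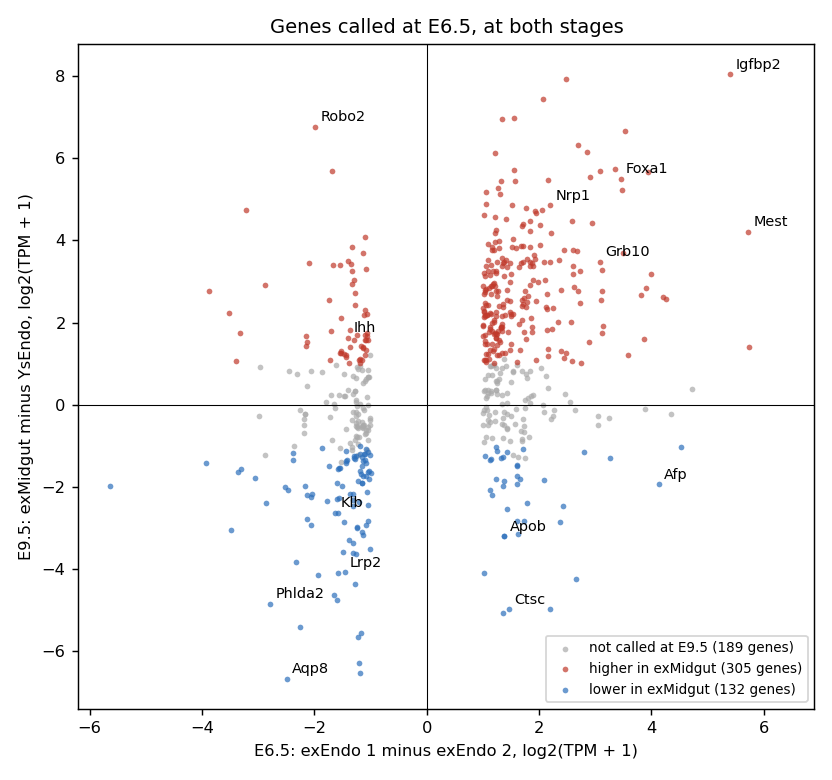
The genes called at E6.5 that were also tested at E9.5 are placed by their difference at E6.5, exEndo 1 minus exEndo 2 (horizontal axis), and at E9.5, exMidgut minus YsEndo (vertical axis), both of log2(TPM + 1), and coloured by their call at E9.5. The upper right holds 246 genes higher in the distal endoderm and in exMidgut, and the lower left 94 genes lower in both.

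For the same exMidgut libraries the comparison with emMidgut gave 321 called genes of 12432 tested (2.58%), 153 higher in exMidgut (1.23%) and 168 lower (1.35%). These libraries enter both comparisons, so the results are set side by side with no measure of overlap. Of the yolk sac markers 7 of 9 were higher in exMidgut than in emMidgut, of the serum proteins 7 of 23, of the p53 targets 7 of 25 and of the extraembryonic and germline genes 15 of 17. Of the Wnt genes 0 of 25 were higher and 0 lower, and of the regional gut factors 0 of 18 were higher and 2 lower.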

How the data were processed

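Low-input poly(A) RNA libraries were trimmed (cutadapt 4.1), aligned (STAR 2.7.9a) and quantified with StringTie 2.0.6 on GENCODE VM23 by the authors, whose deposited tables give coverage, FPKM and TPM per gene. These are not read counts, and a coverage value keeps only relative depth, so no counting interval was given. Here TPM were summed per gene ID and protein-coding genes, by GENCODE vM21, were kept where at least 4 of the 8 libraries exceeded 1 TPM. log2(TPM + 1) was fitted with limma 3.58.1 (R 4.3.3; trend and Benjamini-Hochberg adjustment) for exMidgut against YsEndo, exEndo 1 against exEndo 2 and exMidgut against emMidgut, each on its own 8 libraries. Tables were made with pandas 2.3.3, SciPy 1.17.1 and NumPy 2.4.6 under Python 3.11.15, and the fit was tested on simulated data. Members and gene lists were chosen with earlier results of these data known. Named genes were the 10 largest called differences in each direction with separated groups, up to 5 called members per list and direction and up to 3 abundant members that were not called, and a fixed set of lineage genes, some of which are not reported here. Replicates are separate libraries by their labels, and p-values measure the spread between them. The remaining E9.5 libraries entered only an alternative fit. Median-ratio rescaling, quantile normalisation, FPKM, other filters and pseudocounts, a replicate block and leaving out each library were tried as alternatives. Deviations from the group means of same-numbered libraries correlated at 0.167 to 0.402 for exEndo 1 and exEndo 2. The study's methods describe these as tissues of individual embryos. The correlations were 0.000834 to 0.0555 for exMidgut and YsEndo and 0.0127 to 0.0798 for exMidgut and emMidgut. A pairing by number was thus clear only at E6.5, and these weak correlations cannot exclude one at E9.5.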

Additional observations from a re-analysis of the deposited data

Results flagged for a closer look

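Within a tissue, 1 of the 4 libraries lay apart from the other three by Dixon's criterion on the gap to its nearest neighbour, in 32 of 331 groups of 4 values tested, where chance flags about 5 in 100. Where the remaining values were all 0, any value above 0 is flagged, as for Shh and Lef1 in YsEndo. The chance rate does not apply to such groups. In YsEndo the values under 2 TPM that stood apart were 0.896 TPM of Hmga2, 0.0933 TPM of Lef1, 1.51 TPM of Nepn and 0.156 TPM of Shh in replicate 1. Replicate 2 held 0.793 TPM of Alb, 0.268 TPM of Lamb3, 0.425 TPM of Osr2, 0.568 TPM of Rasl11a and 0.344 TPM of Sema3c. Replicate 3 held 0.0768 TPM of Capn6 and 1.74 TPM of Rnf43. Replicate 4 held 1.64 TPM of Efna1, 0.0626 TPM of Gli3 and 0.0711 TPM of Rarg. The higher ones in YsEndo were 14160.3 TPM of Apoa1, 6760 TPM of Apoe, 112 TPM of Creb3l3, 576 TPM of Ctsb and 1470 TPM of Phlda2 in replicate 1. Replicate 1 also held 414 TPM of Pkm. Replicate 3 held 22.7 TPM of Ccng1 and 280 TPM of Epcam. In exMidgut they were 2.3 TPM of EGFP and 0.1 TPM of Slc2a2 in replicate 1. Replicate 2 held 947 TPM of Hsp90b1, 5.66 TPM of Osr2, 3.75 TPM of Pcgf5 and 2.47 TPM of Smlr1. Replicate 3 held 166 TPM of Capn6, 32.3 TPM of Hoxd4 and 1.07 TPM of Mbl2. Replicate 4 held 154 TPM of Dnmt3a. YsEndo replicate 1 gave the lowest level of its group for Apoa1, Apoe, Creb3l3, Ctsb, Phlda2 and Pkm. No cause was tested for any of these values.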

How the results depend on the processing

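Quantile normalisation and rescaling moved the balance of the calls. The count of higher genes was 2288 under quantile normalisation, against 3975, and that of lower genes 2186 with median-ratio rescaling and 2271 under quantile normalisation, against 1272, so that 50.2% of the calls under quantile normalisation were higher. The sign of Dnmt3b, which was not called on any scale, turned to -0.15 under quantile normalisation. Leaving out single libraries gave differences from -0.65 to 0.26 for Gata4, also without a call. It gave 5118 to 5309 calls in all, 3882 to 4020 higher and 1223 to 1328 lower, and 642 to 877 calls at E6.5. Against emMidgut it gave 216 to 388 calls, of which 98 to 220 were lower. With the replicate block there were 5288 calls, 797 at E6.5 and 333 against emMidgut. A pairing by number was clear only at E6.5, and the block changed no E6.5 call given in the text. Of the 4 exMidgut libraries 2 correlated best with the YsEndo library of their own number and 3 with that of emMidgut. FPKM gave 4710 calls, a pseudocount of 0.1 gave 5425, and leaving out genes of secreted proteins 5044. Low genes are limited by the few reads behind them, which TPM do not show, and the handling of the tissues differed.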
